A study of Homo sapiens with 16 samples.

Results

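The genes described here are 9 listed targets of the transcription factor NRF2 that encode reductases and enzymes making NADPH. They are NQO1 (ENSG00000181019, chromosome 16), TXNRD1 (ENSG00000198431, chromosome 12), SRXN1 (ENSG00000271303, chromosome 20), AKR1B10 (ENSG00000198074, chromosome 7), AKR1C1, AKR1C2 and AKR1C3 (ENSG00000187134, ENSG00000151632 and ENSG00000196139, all on chromosome 10), ME1 (ENSG00000065833, chromosome 6) and PGD (ENSG00000142657, chromosome 1). They were chosen by name with earlier results of these data known, so shares called among them only describe this list. They are 9 of 63677 gene IDs in the count tables, and all 9 had enough reads to be tested. RNA was sequenced from human melanoma cells treated with 10 uM CCG-222740, a small-molecule inhibitor of MRTF/SRF-driven transcription, or left untreated (0 h). There were 8 groups of 2 libraries each. They were UACC62R at 2, 6 and 24 h of treatment, UACC62P at 2, 6 and 24 h of treatment, untreated UACC62R and untreated UACC62P. UACC62P is the parental line. UACC62R is its derivative, selected for 2 months in 2 uM vemurafenib, a BRAF inhibitor, and kept in it afterwards. It is not stated whether treated UACC62R cells were also in vemurafenib. The labels of the treated libraries carry another growth text than those of the 0 h libraries. No library labelled as vehicle was analysed here, so a change against 0 h cannot be told apart from an effect of vehicle, plating or time in culture. The labels do not say that the 2 libraries of a group came from separate cultures. The p-values therefore measure the spread between these libraries, which may be technical.

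NRF2, encoded by NFE2L2, is held in the cytoplasm and handed to the proteasome by KEAP1. When electrophiles or oxidants modify KEAP1, NRF2 enters the nucleus and pairs with a small MAF protein. The pair binds antioxidant response elements, where BACH1 competes with it. Its targets include quinone and carbonyl reductases, which use NADPH or NADH to reduce reactive compounds. Others are the thioredoxin and sulfiredoxin systems, which repair oxidised protein thiols, and the enzymes that regenerate NADPH. In melanoma, as in other tumours, raised NRF2 output is known to accompany tolerance of oxidative stress and of some drugs.

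Libraries held 25.9 to 33.3 M reads in genes (median 29.9 M). Levels are given as CPM, counts per 1000000 reads in genes after scaling by the trimmed mean of M-values. The library labelled UACC62P 2 h replicate 1 stood apart. A scale was set from 134 genes that differ strongly between the lines at 6 h. The 6 h libraries lie near 0 (UACC62P) and near 1 (UACC62R) by construction, and the ranges given next are the same without them. The library that stood apart lay at 0.992, against 0.958 to 1.011 in the 8 UACC62R libraries and -0.016 to 0.006 in the other 7 UACC62P libraries. It was left out of the 15-library fits that the results rest on. Among the fits it entered only the one with 16 libraries, given beside them as an alternative. The scaling of the CPM values was set over all 16 libraries, this one included. The values of the library that stood apart are given separately. In the 15-library fits UACC62P 2 h has 1 library, which is assumed to vary like the other groups. As to identity, the melanocyte lineage regulator SOX10 lay at 19.9 to 30.1 CPM in UACC62R and at 752 to 913 CPM in UACC62P. In UACC62R 4 of 7 melanoma and melanocyte markers (PMEL, MLANA, TYR and DCT) were under 1 CPM in all 8 libraries. Of 11 markers of other cells, CDH1, PECAM1, CD3E and HBB were at 0 in all these libraries. The summed level of the 11, mostly KRT18 and KRT8, was 67.0 to 93.7 CPM in UACC62R and 27.7 to 41.6 CPM in UACC62P. The part of these differences in any result was not tested. Reads that were not aligned made up 13.55 to 17.85% at 0 h, 15.23 to 16.89% at 2 h, 9.33 to 10.18% at 6 h and 10.76 to 13.68% at 24 h, leaving out the library that stood apart (6.12%). Their part in the changes with time was not tested either. In bulk RNA, fewer cells expressing a gene and less RNA per cell cannot be told apart.

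**Figure D1:**
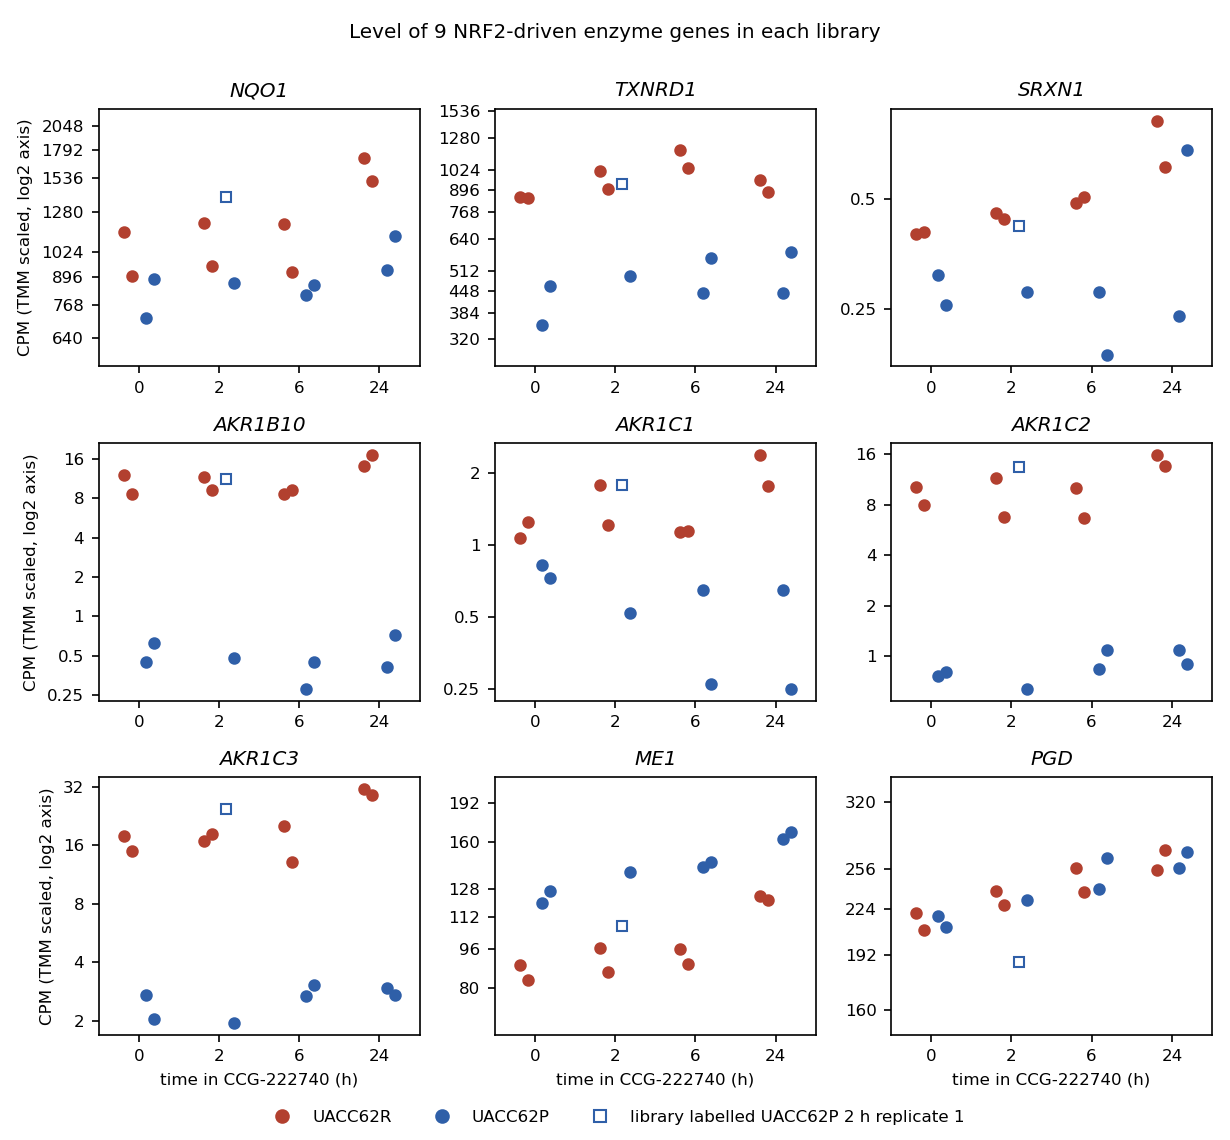
Level of each of the 9 genes in every library (CPM on a log2 axis) against hours in CCG-222740, with UACC62R in red left of UACC62P in blue, and 1 point per library. The open square is the library labelled UACC62P 2 h replicate 1, which lies with UACC62R for AKR1B10, AKR1C2 and AKR1C3. Both 24 h libraries are the highest of UACC62R for NQO1, SRXN1, AKR1B10, AKR1C2, AKR1C3 and ME1.

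Per kilobase of exon, the 9 genes spanned a wide range of levels. In untreated UACC62R the order of mean levels was NQO1 (314 CPM per kb), TXNRD1 (126), PGD (72.4), ME1 (25.5), AKR1B10 (5.95), AKR1C3 (3.63), AKR1C2 (1.40), SRXN1 (0.150) and AKR1C1 (0.132). In untreated UACC62P the order was NQO1 (246 CPM per kb), PGD (72.3), TXNRD1 (60.8), ME1 (36.4), AKR1C3 (0.526), AKR1B10 (0.306), AKR1C2 (0.121), SRXN1 (0.105) and AKR1C1 (0.0888). SRXN1 and AKR1C1 were neighbours at the low end in both lines. They rested on 5 to 25 and 7 to 73 reads per library over all 16 libraries, so their places cannot be separated. Reads that matched more than 1 place, or more than 1 gene, were not counted. For all 9 genes except TXNRD1 and ME1, which share no stretch of 50 bases with another gene, the values are therefore lower bounds. NQO1 shares 18.1% of such stretches, most of them with a gene on the opposite strand, and PGD 7.0%.

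NQO1 encodes the quinone oxidoreductase that takes quinones to hydroquinones in a single step and is the usual marker of NRF2 output. In UACC62R it was measured at 1146 and 898 CPM at 0 h, 1205 and 950 CPM at 2 h, 1193 and 921 CPM at 6 h, and 1722 and 1511 CPM at 24 h. In UACC62P it was at 716 and 887 CPM at 0 h, 868 CPM at 2 h, 811 and 856 CPM at 6 h, and 930 and 1123 CPM at 24 h. In both lines both 24 h libraries lay above every earlier library of that line, while the values at 0, 2 and 6 h overlapped. At 24 h against 0 h, NQO1 rose in UACC62R by 0.67 ± 0.15 on the log2 scale (± SE throughout; 1.59-fold). The p from edgeR's quasi-likelihood test, adjusted by Benjamini-Hochberg over 20280 genes, was 0.00759. This call was lost without UACC62R 0 h replicate 2 (0.51, edgeR adjusted p = 0.111) or without UACC62R 24 h replicate 1 (0.56, edgeR adjusted p = 0.0847). In UACC62P the same difference was 0.35 ± 0.15 and did not pass (edgeR adjusted p = 0.216). The difference between these responses was 0.31 on the log2 scale with a 95% interval of -0.13 to 0.76 (edgeR adjusted p = 0.646). Of NQO1's exon bases, 17.7% lie opposite the gene AC092115.2, which had 0 reads in these tables.

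TXNRD1, the cytosolic thioredoxin reductase that passes electrons from NADPH to thioredoxin, followed another course. In UACC62R it lay at 851 and 846 CPM at 0 h, 1018 and 902 CPM at 2 h, 1178 and 1040 CPM at 6 h, and 961 and 881 CPM at 24 h, so that its highest libraries were those of 6 h. In UACC62P it lay at 353 and 463 CPM at 0 h, 494 CPM at 2 h, 441 and 562 CPM at 6 h, and 441 and 585 CPM at 24 h. None of its treatment differences passed the test in either line in the 15-library fit. In UACC62R the log2 difference was 0.39 ± 0.14 at 6 h against 0 h (edgeR adjusted p = 0.374). It was 0.12 ± 0.14 at 24 h against 0 h (edgeR adjusted p = 0.628) and -0.26 ± 0.14 at 24 h against 6 h (edgeR adjusted p = 0.255). In UACC62P the difference was 0.33 ± 0.14 at 24 h against 0 h (edgeR adjusted p = 0.232). With no filter on low counts TXNRD1 passed at 6 h against 0 h in both lines, at 24 h against 0 h in UACC62P, and as lower at 24 h against 6 h in UACC62R (-0.26, edgeR adjusted p = 0.0117). TXN, which encodes the substrate thioredoxin, had no treatment difference past the test either, with -0.03 ± 0.07 in UACC62R and 0.04 ± 0.07 in UACC62P at 24 h against 0 h.

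SRXN1 encodes sulfiredoxin, which uses ATP to restore over-oxidised peroxiredoxins. Its level in UACC62R was 0.819 and 0.609 CPM at 24 h, against 0.401 and 0.406 CPM at 0 h. In UACC62P it was 0.239 and 0.678 CPM at 24 h, against 0.310 and 0.256 CPM at 0 h. At 24 h against 0 h the log2 difference was 0.82 with a 95% interval of -0.23 to 1.87 in UACC62R and 0.68 with an interval of -0.50 to 1.85 in UACC62P. Both a doubling and no change lie inside these intervals. The gene is undercounted here, since 85.0% of its exon bases are shared on the same strand with the annotated gene AL121758.1. A read in that stretch belongs to both genes and was counted for neither. AL121758.1 itself had 103 reads over the 16 libraries.

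The aldo-keto reductases reduce carbonyls with NADPH, AKR1B10 acting on retinal and on lipid-derived aldehydes, and AKR1C1, AKR1C2 and AKR1C3 on steroids, prostaglandins and aldehydes. The 3 AKR1C genes are near-copies, which limits what single 50-base reads can assign. Their coding sequences, 969 bases each, differ at 19 bases between AKR1C1 and AKR1C2 (98.0% identity), at 83 between AKR1C1 and AKR1C3 (91.4%) and at 87 between AKR1C2 and AKR1C3 (91.0%). Of 920 windows of 50 coding bases, 475 (51.6%) read the same in AKR1C1 and AKR1C2 and 119 (12.9%) the same in all 3. A stretch that a read cannot assign between AKR1C1 and AKR1C2, but can set apart from AKR1C3, runs over coding bases 892 to 941, shown with the bases that differ between any of the 3 genes in capitals (GENCODE 29 transcripts, 5′ to 3′):
AKR1C1: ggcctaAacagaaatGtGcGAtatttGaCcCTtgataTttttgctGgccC
AKR1C2: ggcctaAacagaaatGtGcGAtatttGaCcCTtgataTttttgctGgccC
AKR1C3: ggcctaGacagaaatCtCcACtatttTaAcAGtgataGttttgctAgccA
The stretch in which AKR1C1 and AKR1C2 differ most, by 8 bases, runs over coding bases 111 to 160:
AKR1C1: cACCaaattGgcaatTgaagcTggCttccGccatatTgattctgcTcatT
AKR1C2: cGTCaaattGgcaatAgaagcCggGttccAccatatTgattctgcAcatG
AKR1C3: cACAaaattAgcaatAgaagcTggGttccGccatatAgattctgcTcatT
Reads such as the first kind, which match both AKR1C1 and AKR1C2, drop out of the counts, and over whole transcripts 52.2% of the 50-base windows of AKR1C2, 28.7% of those of AKR1C1 and 12.1% of those of AKR1C3 also occur in another gene.

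**Figure D2:**
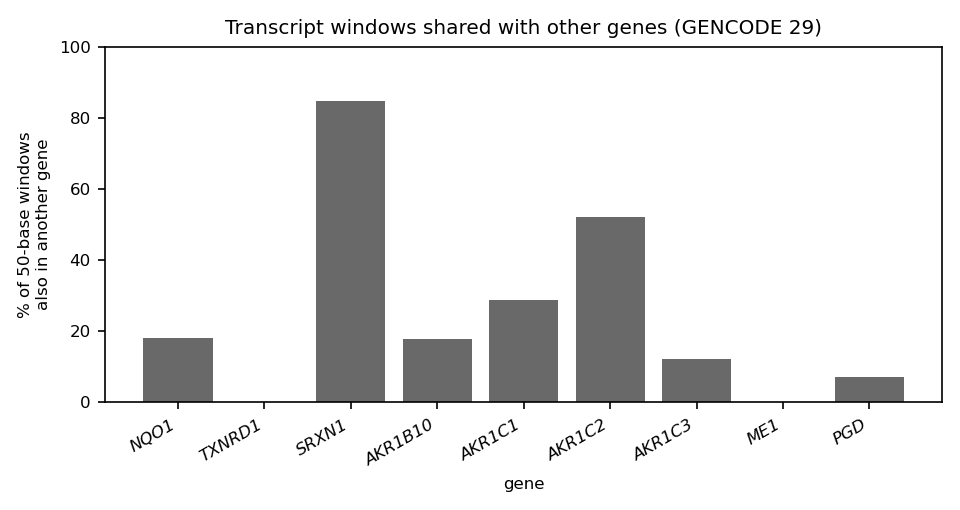
Share of all 50-base windows of each gene's transcript (%) that also occur in a transcript of another gene, one bar per gene. SRXN1 (84.7%) and AKR1C2 (52.2%) share most of their windows, while TXNRD1 and ME1 share none.

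AKR1C3 gave 56 to 70% of the reads counted for the 3 AKR1C genes in each library and was the best measured of them. Windows shared with other genes make up 12.1% of AKR1C3 but 52.2% of AKR1C2 and 28.7% of AKR1C1. The share of counted reads is therefore not a share of transcripts. In UACC62R it lay at 17.9 and 15.01 CPM at 0 h, 16.8 and 18.4 CPM at 2 h, 20.04 and 13.1 CPM at 6 h, and 31.2 and 29.02 CPM at 24 h, with the 24 h libraries well above the rest. In UACC62P it stayed between 1.95 and 3.07 CPM in all 7 libraries. After 24 h against 0 h it rose by 0.88 ± 0.17 on the log2 scale in UACC62R (1.84-fold, edgeR adjusted p = 0.00333; 0.76 and edgeR adjusted p = 0.0529 without UACC62R 0 h replicate 2). In UACC62P the difference was 0.25 ± 0.23 and did not pass (edgeR adjusted p = 0.640), with 24 h libraries at 2.97 and 2.71 CPM and 0 h libraries at 2.72 and 2.05 CPM. The difference between the responses was 0.63 with a 95% interval of 0.01 to 1.25, and it did not pass once adjusted over all genes (edgeR adjusted p = 0.454).

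AKR1C2 showed a like course in UACC62R, with 10.1 and 7.96 CPM at 0 h, 11.5 and 6.73 CPM at 2 h, 10.1 and 6.69 CPM at 6 h, and 15.9 and 13.6 CPM at 24 h. In UACC62P it was between 0.637 and 1.09 CPM throughout. Its 24 h against 0 h difference in UACC62R, 0.71 ± 0.23 on the log2 scale, just missed the threshold (edgeR adjusted p = 0.0546) and passed with the replicate number as a block (0.72, edgeR adjusted p = 0.00309). It was 0.56 to 0.89 with single libraries left out and passed in none of these fits. AKR1C1 lay between 1.07 and 2.39 CPM in UACC62R and between 0.250 and 0.825 CPM in UACC62P. Its 24 h against 0 h differences, 0.84 ± 0.40 in UACC62R and -0.78 ± 0.49 in UACC62P, did not pass (edgeR adjusted p = 0.189 and 0.436). The difference between those responses, 1.62 ± 0.63, did not pass either (edgeR adjusted p = 0.348).

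AKR1B10 had 252 to 595 reads in each UACC62R library and 9 to 20 in each of the 7 UACC62P libraries. In UACC62R it lay at 12.2 and 8.58 CPM at 0 h, 11.7 and 9.26 CPM at 2 h, 8.59 and 9.20 CPM at 6 h, and 14.1 and 17.3 CPM at 24 h. In UACC62P it lay at 0.447 and 0.621 CPM at 0 h, 0.478 CPM at 2 h, 0.278 and 0.4497 CPM at 6 h, and 0.410 and 0.714 CPM at 24 h. The lines never overlapped, and within UACC62R the 24 h libraries were the highest. The 24 h against 0 h difference in UACC62R was 0.61 ± 0.20 on the log2 scale (edgeR adjusted p = 0.0568; 0.61 and 0.0183 with the replicate block). Without UACC62R 0 h replicate 2 it was 0.38 (edgeR adjusted p = 0.400), and without UACC62R 0 h replicate 1 it was 0.87 and passed (edgeR adjusted p = 0.0315). In UACC62P the difference was 0.07 ± 0.41. Its neighbour in sequence, AKR1B15, shares 11.6% of the 50-base windows of AKR1B10 and lay at 0.169 to 1.22 CPM in UACC62R and at 0 to 0.124 CPM in UACC62P.

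ME1 and PGD encode cytosolic enzymes that regenerate NADPH, malic enzyme from malate and phosphogluconate dehydrogenase in the oxidative arm of the pentose phosphate pathway. They had the smallest standard errors of the 9 genes. ME1 lay in UACC62R at 89.2 and 82.9 CPM at 0 h, 96.9 and 86.2 CPM at 2 h, 96.1 and 89.6 CPM at 6 h, and 123 and 121 CPM at 24 h. In UACC62P it lay at 119 and 126 CPM at 0 h, 139 CPM at 2 h, 142 and 145 CPM at 6 h, and 162 and 168 CPM at 24 h. In both lines the 24 h libraries stood above all others of the line, and in UACC62P those of 2 and 6 h already stood above those of 0 h. Over 24 h against 0 h ME1 rose by 0.51 ± 0.07 on the log2 scale in UACC62R (1.43-fold, edgeR adjusted p = 0.000354) and by 0.42 ± 0.07 in UACC62P (1.34-fold, edgeR adjusted p = 0.00443). The difference between the responses was 0.09 with a 95% interval of -0.13 to 0.31.

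PGD lay in UACC62R at 221 and 209 CPM at 0 h, 238 and 227 CPM at 2 h, 257 and 237 CPM at 6 h, and 255 and 273 CPM at 24 h. In UACC62P it lay at 219 and 211 CPM at 0 h, 231 CPM at 2 h, 239 and 265 CPM at 6 h, and 257 and 271 CPM at 24 h. Every treated library of either line thus lay above the 0 h libraries of that line, by small steps, and the lines overlapped at each time with replicates. At 24 h against 0 h it rose by 0.30 ± 0.07 on the log2 scale in UACC62R (1.23-fold, edgeR adjusted p = 0.0132) and by 0.29 ± 0.07 in UACC62P (1.23-fold, edgeR adjusted p = 0.0411). The call in UACC62P was lost on leaving out any of its 4 libraries (0.25 to 0.34, edgeR adjusted p = 0.0938 to 0.244). That in UACC62R was lost without UACC62R 0 h replicate 2 (0.28, edgeR adjusted p = 0.1097) or 24 h replicate 2 (0.25, edgeR adjusted p = 0.0937). At 6 h in UACC62P, PGD and ME1 stood 0.23 ± 0.07 and 0.22 ± 0.07 above 0 h. These differences did not pass (edgeR adjusted p = 0.160 and 0.167) except with the replicate block (edgeR adjusted p = 0.0396 and 0.0409).

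Counted over the 9 genes, calls in either line came only at 24 h in the 15-library fit. At 2 h against 0 h no gene of the 9 passed edgeR's test in UACC62R or in UACC62P, none had an unadjusted p under 0.05, and DESeq2 called 0. In these comparisons 0.0740% (UACC62R) and 0.0444% (UACC62P) of all genes tested were called. At 6 h against 0 h edgeR again called 0 of 9 in each line, beside 0.666% of all genes in UACC62R and 1.52% in UACC62P. At that time 2 genes had an unadjusted p under 0.05 in each line and DESeq2 called 0. At 24 h against 0 h, ME1, PGD, NQO1 and AKR1C3 were higher in UACC62R, 4 of 9 where 6.48% of all genes were called higher, and no gene of the 9 was lower. All 9 had both 24 h libraries above both 0 h libraries in UACC62R, which held for 25.9% of all genes. In UACC62P this held for 4 of 9, beside 23.95% of all genes, and both 24 h libraries lay below both 0 h libraries for 1, beside 23.6%. The median difference in UACC62R was 0.67 on the log2 scale, against 0.01 over all genes. In UACC62P, ME1 and PGD were higher at 24 h, 2 of 9 where 2.19% of all genes were called higher, with a median of 0.33 against 0.00 over all genes. In 6 of the 9 genes both 24 h libraries were the highest of the 8 UACC62R libraries, as in 14.9% of all genes. In UACC62P they were the highest of the 7 libraries in 2 of the 9 genes, as in 10.4% of all genes.

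Against 6 h, which leaves out the 0 h libraries and their other growth text, 5 of 9 genes were higher at 24 h in UACC62R, where 5.18% of all genes were called higher. These were AKR1C3 (0.86 ± 0.17, edgeR adjusted p = 0.00463), AKR1C2 (0.82 ± 0.23, edgeR adjusted p = 0.0347), AKR1B10 (0.82 ± 0.20, edgeR adjusted p = 0.0161), NQO1 (0.62 ± 0.15, edgeR adjusted p = 0.0146) and ME1 (0.40 ± 0.07, edgeR adjusted p = 0.00260). All of these but ME1 lost their call without UACC62R 6 h replicate 2. Some lost it without either 24 h library. Those fits have 1 library fewer, and the share of all genes called in them is not given here. In UACC62P 0 of 9 passed at 24 h against 6 h, beside 0.735% of all genes, with 1 gene at an unadjusted p under 0.05 and 0 called by DESeq2. When all 16 libraries were fitted together, the larger common spread (dispersion 0.0622, against 0.00985 with 15 libraries) left 0 of the 9 called in any treatment comparison, at fold changes within 0.01 of the others at 24 h. In that fit 1.78% of all genes were called at 24 h against 0 h in UACC62R, 0.816% at 24 h against 6 h in UACC62R and 0.150% at 24 h against 0 h in UACC62P. With the replicate block, 6 of 9 were higher at 24 h against 0 h in UACC62R, where 11.0% of all genes were, and 2 of 9 at 6 h against 0 h in UACC62P, where 3.64% were. The difference between the responses of the lines passed edgeR's test for 0 of 9 genes at 2, 6 and 24 h, beside 0.00%, 0.00493% and 0.562% of all genes. An unadjusted p under 0.05 was seen in 0, 0 and 2 of them, and DESeq2 called 0. Thus none of these responses was shown to belong to one line.

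**Figure D3:**
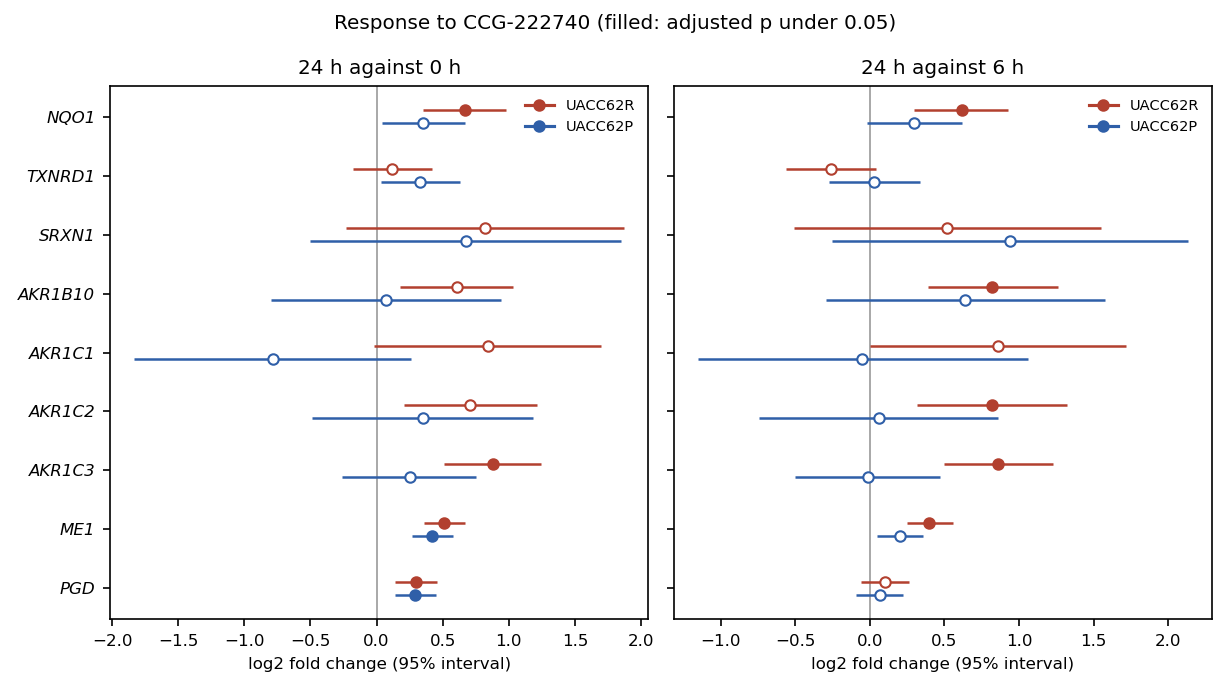
Log2 fold change of each gene at 24 h against 0 h (left) and against 6 h (right), UACC62R in red above UACC62P in blue, with 95% intervals; filled points passed an adjusted p of 0.05. The UACC62R points lie above 0 except TXNRD1 against 6 h (-0.26), and intervals of the lines overlap except for AKR1C3 against 6 h.

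In untreated UACC62R against untreated UACC62P, 4 of 9 genes were higher, where 27.8% of all genes were called higher, and 1 was lower, where 26.1% were. Counting both directions, 5 of 9 is close to the 53.9% of all genes that differed between the lines. AKR1B10 was 19.3-fold higher (log2 4.27 ± 0.29, edgeR adjusted p = 1.3e-08), AKR1C2 11.5-fold (3.52 ± 0.31, edgeR adjusted p = 2.53e-07) and AKR1C3 6.86-fold (2.78 ± 0.21, edgeR adjusted p = 3.99e-08). TXNRD1 was 2.08-fold higher (1.06 ± 0.14, edgeR adjusted p = 1.9e-05). ME1 went the other way, at 89.2 and 82.9 CPM in UACC62R and 119 and 126 CPM in UACC62P (-0.52 ± 0.07, edgeR adjusted p = 2.86e-05). PGD had a log2 difference of -0.00 with a 95% interval of -0.16 to 0.16. The 16-library fit, in which 40.5% of all genes were called, gave the same 5 calls, with edgeR adjusted p-values of 0.0108 to 0.0188.

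NQO1 stood 0.35 ± 0.15 higher in untreated UACC62R and did not pass (edgeR adjusted p = 0.0602), while it passed with the replicate block (0.34, edgeR adjusted p = 0.0257). At 6 h it was likewise 0.34 ± 0.15 (edgeR adjusted p = 0.0657, and 0.0271 with the block). With single libraries left out, the NQO1 difference ran between 0.17 (without UACC62R 0 h replicate 1, edgeR adjusted p = 0.480) and 0.50 (without UACC62R 0 h replicate 2, edgeR adjusted p = 0.0239) at 0 h. At 6 h it ran between 0.14 (without UACC62R 6 h replicate 1, edgeR adjusted p = 0.545) and 0.51 (without UACC62R 6 h replicate 2, edgeR adjusted p = 0.0206). At 24 h its difference was 0.66 ± 0.15 (edgeR adjusted p = 0.00160), with 1722 and 1511 CPM in UACC62R and 930 and 1123 CPM in UACC62P. AKR1C1 differed by 0.57 ± 0.44 at 0 h (edgeR adjusted p = 0.294), by 1.28 ± 0.46 at 6 h (edgeR adjusted p = 0.0315) and by 2.19 ± 0.45 at 24 h (edgeR adjusted p = 0.000799). Its 6 h call was lost without UACC62P 6 h replicate 2 (0.80, edgeR adjusted p = 0.218) and without UACC62R 6 h replicate 1 (1.29, edgeR adjusted p = 0.0813) or 2 (1.27, edgeR adjusted p = 0.0872), and the value was 2.12 without UACC62P 6 h replicate 1. Counted together, 5 of 9 genes were higher and 1 lower in UACC62R at 6 h, where 26.5% and 25.0% of all genes were. At 24 h 6 of 9 were higher and 1 lower, where 28.1% and 27.0% were. The log2 difference at 24 h was 4.81 ± 0.28 for AKR1B10, 3.89 ± 0.29 for AKR1C2, 3.41 ± 0.20 for AKR1C3, 0.85 ± 0.14 for TXNRD1 and -0.42 ± 0.07 for ME1. SRXN1 did not pass at 0, 6 or 24 h, with differences of 0.50 ± 0.55 at 0 h, 1.06 ± 0.55 at 6 h and 0.64 ± 0.49 at 24 h. Its 24 h value was 0.07 without UACC62P 24 h replicate 1, and 1.56 and past the test (edgeR adjusted p = 0.0471) without UACC62P 24 h replicate 2.

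**Figure D4:**
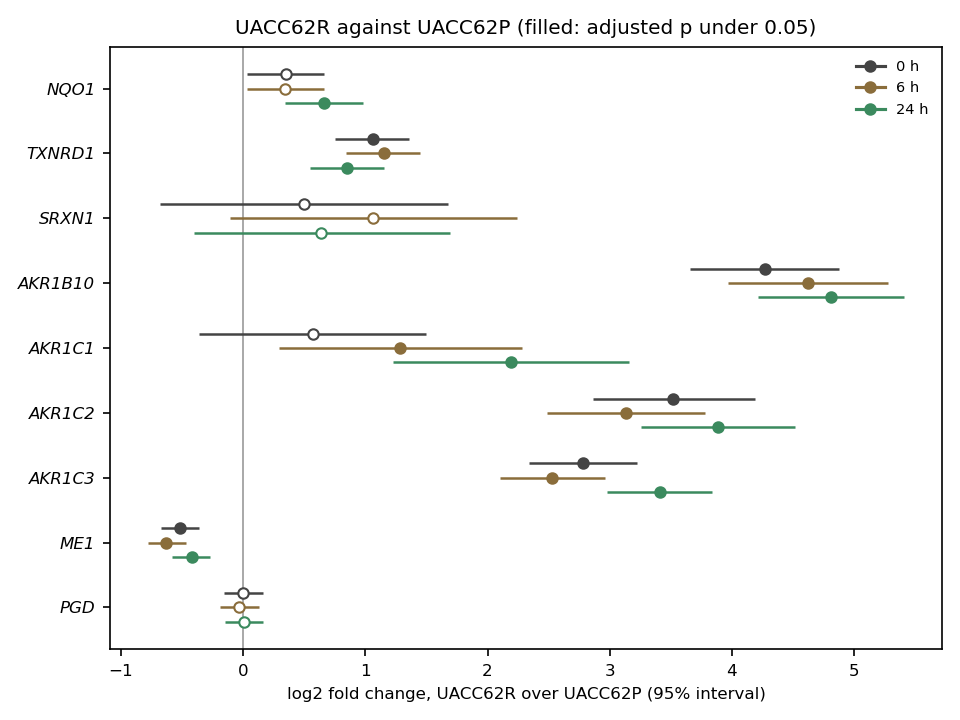
Log2 fold change of UACC62R over UACC62P for each gene at 0, 6 and 24 h, with 95% intervals; filled points passed an adjusted p of 0.05. AKR1B10, AKR1C2 and AKR1C3 lie between 2.53 and 4.81, TXNRD1 near 1, PGD at 0, and ME1 below 0 at each time.

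Among relatives of the 9 genes, those catalysing the same kind of reaction did not all share these patterns. Of 14 such genes 13 were tested, and 4 were higher and 4 lower in untreated UACC62R, shares near the 27.8% and 26.1% of all genes. The mitochondrial malic enzyme ME2 (-1.56 ± 0.09) and the thioredoxin glutathione reductase TXNRD3 (-1.24 ± 0.11) were lower in UACC62R. At 24 h against 0 h 3 of the 13 rose in UACC62R, beside 6.48% of all genes, and none in UACC62P, beside 2.19%. Among these were NQO2, the other quinone reductase (0.44 ± 0.14, edgeR adjusted p = 0.0423, lost on leaving out any of the 4 libraries), and the NADPH-making enzyme IDH1 (0.48 ± 0.07, edgeR adjusted p = 0.000657).

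The wider NRF2 pathway was followed in 51 other genes, 49 of which were tested. This list too was made with earlier results of these data known. It takes in genes that act on glutathione, such as CHAC1, and whether NRF2 drove any of the 49 was not tested. In UACC62R at 24 h against 0 h 17 rose and none fell, where 6.48% of all genes rose and 8.23% fell. With 16 libraries 3 rose (0.884% of all genes). Fewer than 17 were called without UACC62R 0 h replicate 2 or without 24 h replicate 1. Those fits have 1 library fewer, and the share of all genes called in them is not given here. The median was 0.22 on the log2 scale against 0.01 over all genes. The largest of these were the fatty acid hydroxylase CYP4F11 (1.77 ± 0.30), the ferritin heavy chain FTH1 (0.91 ± 0.18), the epoxide hydrolase EPHX1 (0.89 ± 0.08) and the lipase ABHD4 (0.86 ± 0.13). The smallest were PIR (0.34 ± 0.10), UGDH, which makes UDP-glucuronate (0.39 ± 0.10), and the biliverdin reductase BLVRB (0.40 ± 0.09). In UACC62P at 24 h against 0 h 5 rose and none fell, where 2.19% of all genes rose and 1.65% fell. With the replicate block 14 rose and 1 fell (6.04% of all genes each way), and with 16 libraries 0 were called (0.150% of all genes). Fewer than 5 were called on leaving out 24 h replicate 1 or 2, in fits with 1 library fewer. The 5 were the cystine transporter subunit SLC7A11 (1.51 ± 0.12), the glutathione-degrading CHAC1 (1.10 ± 0.29), EPHX1 (0.79 ± 0.08), ABHD4 (0.76 ± 0.13) and the microsomal glutathione transferase MGST1 (0.37 ± 0.08). CHAC1 lay at 36.2 and 28.5 CPM at 24 h and at 21.7 and 8.30 CPM at 0 h, and its call was lost without UACC62P 0 h replicate 2 or either 24 h library. The CHAC1 difference was 0.56 without 0 h replicate 2 and 1.98 without 0 h replicate 1.

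Other genes of the pathway passed the test at 6 h, when none of the 9 did. In UACC62P at 6 h against 0 h 5 of the 49 pathway genes rose and none fell, where 0.848% of all genes rose and 0.671% fell. With the replicate block 10 rose and 3 fell, beside 3.64% and 3.33% of all genes. None was called with 16 libraries (0.0517% of all genes). All of these calls were lost without UACC62P 0 h replicate 2, and some without 6 h replicate 2 or 0 h replicate 1. Those fits have 1 library fewer, and the share of all genes called in them is not given here. HMOX1, which encodes the heme-degrading heme oxygenase 1, lay at 128 and 772 CPM at 6 h, against 35.0 and 43.5 CPM at 0 h (3.51 ± 0.55, edgeR adjusted p = 0.00526). The replicates differed widely. The difference was 1.72 without 6 h replicate 2, and the call was lost without either 0 h library (edgeR adjusted p = 0.0771 and 0.0788). GCLM, the regulatory subunit of the enzyme that starts glutathione synthesis, rose by 0.88 ± 0.18 (edgeR adjusted p = 0.0292), and SLC7A11 by 0.81 ± 0.12 (edgeR adjusted p = 0.00340), and both calls were lost without UACC62P 0 h replicate 2 or 6 h replicate 2. GCLM was also lost without 0 h replicate 1, and its value was 0.57 without 6 h replicate 2. In UACC62R at 6 h against 0 h edgeR called 0 of the 49, as did DESeq2 (6 rose and 2 fell with the replicate block, beside 1.74% and 1.06% of all genes). HMOX1 lay at 395 and 405 CPM at 6 h, against 116 and 101 CPM at 0 h (1.88 ± 0.51, edgeR adjusted p = 0.157). At 2 h it already lay at 445 and 354 CPM in UACC62R and at 198 CPM in UACC62P. By 24 h it was at 196 and 153 CPM in UACC62R and at 50.3 and 84.1 CPM in UACC62P. The fall in UACC62P at 24 h against 6 h passed the test, and this call was lost in 4 of 10 alternatives.

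NFE2L2, KEAP1 and BACH1 passed no treatment comparison in either line. NFE2L2 lay at 157 to 194 CPM in UACC62R and at 217 to 266 CPM in UACC62P, and was lower in untreated UACC62R (-0.52 ± 0.08, edgeR adjusted p = 0.000114). BACH1 was lower in untreated UACC62R as well (-0.82 ± 0.08, edgeR adjusted p = 9.78e-07), and KEAP1 was at -0.17 ± 0.08 (edgeR adjusted p = 0.0996). Of the 49 pathway genes 25 were higher and 12 lower in untreated UACC62R, where 27.8% of all genes were higher and 26.1% lower, so that the share lower was near that of all genes. At the high end were the drug efflux pumps ABCC3 (5.58 ± 0.31) and ABCC2 (3.12 ± 0.15), CYP4F11 (3.95 ± 0.48) and MGST1 (3.03 ± 0.08). CYP4F11 was near 0 CPM in untreated UACC62P, and its difference was 3.12 without UACC62P 0 h replicate 1 and 6.03 without replicate 2. Among the lowest were PIR (-1.72 ± 0.10) and the pentose phosphate isomerase RPIA (-1.44 ± 0.13). GCLM (1.33 ± 0.18), SLC7A11 (1.11 ± 0.12) and HMOX1 (1.47 ± 0.52) were among those higher, and TXN was 0.18 ± 0.07 higher (edgeR adjusted p = 0.0332). The calls of HMOX1 and TXN, but not those of GCLM and SLC7A11, were lost with all 16 libraries and when some single libraries were left out.

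Across the 15 libraries, with each line set to its own mean, log2 levels of the 9 genes moved together to unequal degrees, and some pairs did not. Pearson's r was 0.90 between NQO1 and ME1, 0.86 between ME1 and PGD, 0.83 between AKR1C2 and AKR1C3 and 0.81 between NQO1 and AKR1C2. TXNRD1 had r of 0.31 with NQO1 and -0.05 with AKR1C3. AKR1C1, measured on few reads, had r of -0.61 with TXNRD1, -0.23 with PGD and 0.04 to 0.27 with the others. These values describe libraries that share time points, sequencing and replicate number, and carry no test. Of 10342 genes compared in the same way, those most like ME1 were ANO10 (r = 0.985), EPHX1 (0.974) and CCPG1 (0.967). Those most like PGD were SLC3A2, the partner chain of SLC7A11 (0.946), DNAJB9 (0.941) and SLC49A4 (0.937). The closest gene was EXT1 for NQO1 (0.945), TBC1D17 for AKR1C3 (0.963), CARD19 for AKR1C2 (0.930), ZNF189 for TXNRD1 (0.885) and TMEM218 for AKR1B10 (0.869).

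ME1, PGD and TXNRD1 hold letters that match the core antioxidant response element in their promoter. RefSeq promoters (GRCh38.p14) were found for 8 of the 9 genes, all but AKR1B10. The core TGACNNNGC was searched on both strands in the 300 bases around each start. It was present in 4 of the 10 promoters of these 8 genes, TXNRD1 and AKR1C3 having 2 each, and in 13.3% of all 35116 promoters. The 4 are those of ME1 and PGD and both of TXNRD1, whose other promoter, not shown, has its match on the opposite strand 102 bases before the start. For NQO1, SRXN1 and the AKR1C genes these letters were not found in this window. The 270 bases from the upstream end of that window are shown for these 3 genes, each written 5′ to 3′ along the gene's strand, with each match in capitals.
ME1 (chr6:83431032-83431301, minus strand): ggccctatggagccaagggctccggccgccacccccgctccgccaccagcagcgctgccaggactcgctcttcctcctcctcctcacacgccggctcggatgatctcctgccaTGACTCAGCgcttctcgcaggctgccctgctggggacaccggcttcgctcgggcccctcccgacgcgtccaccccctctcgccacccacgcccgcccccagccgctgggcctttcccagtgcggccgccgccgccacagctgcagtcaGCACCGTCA
PGD (chr1:10398814-10399083, plus strand): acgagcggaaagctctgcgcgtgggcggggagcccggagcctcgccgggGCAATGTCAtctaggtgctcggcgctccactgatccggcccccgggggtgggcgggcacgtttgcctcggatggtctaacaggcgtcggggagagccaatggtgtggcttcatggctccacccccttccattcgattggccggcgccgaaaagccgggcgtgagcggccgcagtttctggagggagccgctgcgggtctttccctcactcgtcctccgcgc
TXNRD1 (chr12:104215529-104215798, plus strand): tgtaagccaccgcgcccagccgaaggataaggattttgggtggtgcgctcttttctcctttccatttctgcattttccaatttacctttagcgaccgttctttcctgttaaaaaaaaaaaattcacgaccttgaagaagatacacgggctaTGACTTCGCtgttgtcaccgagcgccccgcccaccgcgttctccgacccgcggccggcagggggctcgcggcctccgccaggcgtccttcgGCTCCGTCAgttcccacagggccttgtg
The first match in ME1 begins 137 bases before the start, overlaps the AP-1 motif TGANTCA, and reads TGACTCAGC, while the other begins 12 bases after the start on the opposite strand. AP-1's motif is in 7.7% of all promoters. In PGD the match lies on the opposite strand, 201 bases before the start, and in TXNRD1 the first lies 99 bases before it. A match of letters is a description of the sequence and was not tested as a binding site.

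The library labelled UACC62P 2 h replicate 1 took the levels of UACC62R in these genes as well. It held 11.3 CPM of AKR1B10, 13.5 CPM of AKR1C2 and 24.5 CPM of AKR1C3, against 0.478, 0.637 and 1.95 CPM in the other UACC62P 2 h library. Its ME1 level, 107 CPM, lay below all 7 other UACC62P libraries, and its PGD level, 187 CPM, lay below all 15 other libraries.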

How the data were processed

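Per the labels' protocols, poly(A) RNA was made into stranded libraries and read as single 50-base reads on a HiSeq 4000. The tools listed in the submitters' processing notes are HTSeq 0.6.1, HISAT2 2.1.0, Trimmomatic 0.33, FastQC 0.11.5 and bcl2fastq 2.19.0, with build hg19. How strand was set in counting is not stated. The authors deposited raw read counts per Ensembl gene ID, 1 table per library, with 5 summary lines, which stayed out of library sizes and tests. These show 6.12 to 17.85% of reads not aligned, 18.62 to 22.01% aligned more than once and, of unique reads, 3.31 to 4.66% in no gene and 5.99 to 6.81% in several genes.

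Of the IDs, 52181 were given a symbol by a table of gene names. Counts were scaled by TMM and tested with edgeR 4.0.16 (R 4.3.3) by the quasi-likelihood test over 15 libraries in 1 group per line and time, after filterByExpr (20280 genes). P-values were adjusted by Benjamini-Hochberg over all tested genes in each of 14 comparisons, and a gene was called at an adjusted p under 0.05. Alternatives were all 16 libraries, the replicate number as a block, other scaling, no filter, DESeq2 1.42.0, and leaving out single libraries. The steps were tested on simulated data. The 15-library fit treated libraries as unpaired, and only the block alternative used replicate numbers to pair them. Deviations of same-numbered libraries correlated at 0.17 to 0.72 in all 21 pairs of groups (8273 genes). This pairing comes from the data, not from a label, and the SEs and calls of the 15-library fit leave it out. Exon lengths, overlaps and shared windows came from GENCODE 29 (GRCh38) and promoters from RefSeq, not from the annotation used for counting.

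The 9 genes and the gene lists were chosen with earlier results of these data known. Named other genes are NFE2L2, KEAP1, BACH1, HMOX1, GCLM, SLC7A11 and TXN, and the called pathway and related genes with the 4 largest and 4 smallest log2 fold changes at 24 h against 0 h in each line and between untreated lines, with mean log2 CPM of at least 0; IDH1 was added after its values were seen. 1 other gene of these lists is not reported here. For each of the 9 genes with mean log2 CPM of at least 0, the genes most like it were the top 3 by Pearson's r.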

Additional observations from a re-analysis of the deposited data

Results flagged for a closer look

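The library labelled UACC62P 2 h replicate 1 was left out of the 15-library fits. In it 6 of the 9 genes lay above every other UACC62P library, those of 0 h included. The share of all genes for which this held was not counted, so the number only describes these 9 genes. For scale, both UACC62R libraries lay above both UACC62P libraries at 0 h in 7 of the 9 genes, beside 39% of all genes. NQO1 lay at 1383 CPM, TXNRD1 at 931 CPM, AKR1B10 at 11.3 CPM, AKR1C1 at 1.78 CPM, AKR1C2 at 13.5 CPM and AKR1C3 at 24.5 CPM. The highest of the other 7 UACC62P libraries held 1123 CPM of NQO1, 585 CPM of TXNRD1, 0.714 CPM of AKR1B10, 0.825 CPM of AKR1C1, 1.09 CPM of AKR1C2 and 3.07 CPM of AKR1C3. SOX10 lay at 18.1 CPM in this library.

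The response of SLC7A11 at 24 h differed between the lines by a test of the difference itself: it was -0.95 ± 0.17 on the log2 scale (UACC62R minus UACC62P; edgeR adjusted p = 0.0212). SLC7A11 lay at 242 and 201 CPM in UACC62R at 24 h against 153 and 148 CPM at 0 h, and at 192 and 206 CPM in UACC62P at 24 h against 74.8 and 64.6 CPM at 0 h. The call was lost in 7 of 14 alternatives, among them all 16 libraries and 6 in which a single library was left out, at values of -1.10 to -0.83 over the 14.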

How the results depend on the processing

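Of 29 values of the 9 genes that passed the test, 17 kept their call in every alternative run, and no value called in any fit changed direction; of 84 values never called, 43 changed sign in at least 1 alternative. All line differences at 0 h and 24 h kept their calls. With all 16 libraries, 0 of the 9 genes were called at 24 h against 0 h in UACC62R, at 24 h against 6 h in UACC62R and at 24 h against 0 h in UACC62P, where the fold changes stayed within 0.01 of those with 15 libraries and the common spread was larger. The replicate block called 2 at 6 h against 0 h in UACC62P, and it ended no other call and added those named in the results. With no filter on low counts, UACC62P had 4 called at 24 h against 0 h. It also had 1 at 6 h against 0 h and 1 at 24 h against 6 h. In UACC62R 1 was called at 6 h against 0 h, and AKR1B10 and AKR1C2 were gained at 24 h against 0 h. TXNRD1 was called lower at 24 h against 6 h in UACC62R. The share of all genes called with no filter is not given here, so these counts are not read as a result about the 9 genes. The cause was not tested. Leaving out single libraries gave 1 to 5 called at 24 h against 0 h in UACC62R, 1 to 4 at 24 h against 6 h in UACC62R and 1 in each case at 24 h against 0 h in UACC62P, from fits with 1 library fewer. Of 97 values of other named genes that passed, 48 kept their call throughout. With library size as the only scaling, the all-gene median became 0.102 (0 h) and 0.108 (24 h) between the lines, against 0.022 and 0.020 with TMM. Few counted reads limit AKR1C1, SRXN1 and, in UACC62P, AKR1B10 most.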
